A study of Homo sapiens with 8 samples.

Results

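The p53 target genes described here are 36 genes that are widely used as readouts of p53 activity, chosen as a fixed list of symbols that includes TIGAR under that name. All 36 were in the count table of 26760 genes. Of these, 35 had enough counts to be tested and TRIM22 did not. The cells were LK2, a line grown from a human squamous carcinoma of the lung, and RNA was sequenced from 8 libraries in 4 groups of 2. Constitutive DNp63 cells carried a DNp63 vector, pLEX_306 in replicate 1 and pLEX_307 in replicate 2, and their GFP controls carried the same vectors with GFP. Induced cells carried pLIX_403-DNp63 and received doxycycline at 2 µg per ml for 6 days, and uninduced cells carried the same vector and were kept for 6 days without the drug. DNp63 is p63, a transcription factor, made without its N-terminal activation domain. No group of cells without a lentiviral vector was measured, and both inducible groups carried DNp63 DNA. The p-values below measure the spread between libraries. Whether the 2 libraries of an inducible group came from separate cultures is not labelled, so their spread may be technical. The 2 libraries of a constitutive group carried different vectors, so their spread includes any difference between these.

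The tumour suppressor p53 is a transcription factor that binds a pair of short half-sites and turns on genes of cell cycle arrest, apoptosis, DNA repair and metabolism after DNA damage and other stress. Its target MDM2 is a ubiquitin ligase that degrades p53, so that the response limits itself. p63 belongs to the same family and recognises closely related DNA sites, and DNp63 can occupy such sites without the activation domain of p53.

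The DNA near the start of MDM2 is shown because MDM2 was the 1 gene called between the control groups, and sites of AEN, FAS and FDXR because these genes were also called below. In RefSeq promoter windows of build GRCh38.p14, from 250 bases before to 50 after a gene's start, the p53 consensus site was searched as 2 copies of the 10-base p53 half-site, with at most 1 base between them. The central C and G of each copy had to be kept, and at most 3 other bases could differ over both copies. The half-site reads the same on both strands, and no other motif was searched. Windows of 27 members were searched, of which 8 held a match (29.6%), while 795 of 27305 genes with a window held one (2.91%). The 8 members were AEN, DDB2, FAS, FDXR, GDF15, MDM2, PMAIP1 and SESN1. The remaining members were not searched, whether or not they have a window. The 2 shares may thus not rest on genes chosen alike. The MDM2 window lies upstream of an alternative start within its first intron, at chr12:68808767-68809016 on the plus strand, and the capitals mark the match, which differs from the consensus at 2 bases.
MDM2: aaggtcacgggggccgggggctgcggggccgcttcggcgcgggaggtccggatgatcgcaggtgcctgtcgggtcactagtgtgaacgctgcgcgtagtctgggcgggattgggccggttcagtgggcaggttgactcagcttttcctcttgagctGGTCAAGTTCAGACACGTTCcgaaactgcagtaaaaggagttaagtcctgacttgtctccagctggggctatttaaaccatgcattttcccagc
In the next 4 sequences the capitals mark the match and the small letters its flanks.
AEN: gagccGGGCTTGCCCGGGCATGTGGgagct
FAS: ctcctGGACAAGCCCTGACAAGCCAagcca
FDXR: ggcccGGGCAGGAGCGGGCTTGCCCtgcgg
DDB2: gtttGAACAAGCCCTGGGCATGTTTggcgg
The AEN match is at chr15:88621306-88621325 (plus strand, noncoding exon, 2 mismatches) and the FAS match at chr10:88991309-88991328 (plus strand, intron, 2 mismatches). The FDXR match is at chr17:74872996-74873015 (minus strand, noncoding exon, 3 mismatches). The DDB2 match, at chr11:47214979-47214999 (plus strand, noncoding exon), had no mismatch and 1 base between its half-sites. A match describes the letters of the window and not binding of a factor in these cells.

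Library totals ran from 2758158 to 10372248 counts. TP63, the overexpressed gene, stood at 1850.1 and 3816 CPM (counts scaled to a common library size) in constitutive DNp63 cells and 0.739 and 1.91 CPM in GFP cells, and at 412 and 422 CPM in induced cells and 12.7 and 14.8 CPM in uninduced cells. Reads from the vector's DNp63 could be counted as TP63. Of the defining keratins of squamous epithelium, KRT14 had no count in any library, and KRT5 had 1392 and 97 counts in constitutive DNp63 cells and 0 to 4 in each of the other 6 libraries, so these defining markers were absent or near 0 in the controls. Leaving out TP63, the squamous markers summed to 608 to 1099 CPM in constitutive DNp63 cells, 58.2 to 73.5 CPM in GFP cells, 65.9 to 79.8 CPM in induced cells and 36.2 to 38.9 CPM in uninduced cells. Leukocyte and endothelial markers summed to at most 3.7 CPM in any library, with CD3E and PECAM1 at 0 throughout. Fibroblast markers summed to 8.3 to 30.3 CPM, mostly COL1A1, with DCN at 0. Neuroendocrine markers summed to 10.7 to 47.7 CPM, mostly INSM1, which was lower with constitutive DNp63 (20.002 and 10.3 CPM, against 47.7 and 29.012 CPM in GFP cells, log2 fold change −1.35, edgeR adjusted p = 0.0486). Its relation to the constitutive values of the members was not tested. Summed levels were 4.66 to 12.1 CPM for lung glandular markers, nearly all NKX2-1, with NAPSA and SCGB1A1 at 0.

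Averaged over both systems, DNp63 cells had lower levels of TP53I3, AEN, PLK2 and TRIAP1 than the controls of their own system, and no p53 target gene was higher by the test. Of the 35 tested members 4 fell, none rose and 31 did not pass (edgeR quasi-likelihood test, Benjamini-Hochberg adjusted p below 0.05 over all 12303 genes tested). Among all genes 5.67% were called, 2.41% lower and 3.26% higher. The median log2 fold change of the members was −0.37, with 26 of 35 below 0, against a median of −0.01 and 50.8% below 0 over all genes. With constitutive DNp63, 6 members fell relative to GFP (FDXR, FAS, BBC3, TP53I3, CCNG1 and MDM2) and none rose, where 8.16% of all genes were called, 3.99% lower and 4.17% higher. The members' median there was −0.46, against 0.01 over all genes. Between induced and uninduced cells no member was called by edgeR or by DESeq2 (which called 0.894% of all genes). In edgeR 6 members had an unadjusted p below 0.05 in that comparison, against 743 of all 12303 genes. Of all genes 0.284% were called there, 0.0488% lower, and the members' median was −0.16. The difference between the systems was not called for any member by edgeR, where 0.545% of all genes were. At an unadjusted p below 0.05 it held 8 members, against 1496 of all 12303 genes. DESeq2 called it for FDXR and PHLDA3 and for 2.15% of all genes. With the replicate number as a block, edgeR called it for FDXR, GDF15, PHLDA3 and SESN2 and for 2.19% of all genes. Without the filter on low counts, edgeR called it for 7 members among 558 of 18159 genes. These were BBC3, CCNG1, FDXR, GDF15, PHLDA3, SESN2 and ZMAT3. Of the 6 members called in the constitutive system, FAS, TP53I3 and MDM2 were thus not shown to differ from their inducible values by any of these fits. BBC3 and CCNG1 were shown to differ only without the filter.

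The calls differed when each system was fitted alone, which changes the spread, the genes tested and the number of libraries in the fit. Fitted alone, the inducible system gave 8 members lower in induced cells (AEN, BTG2, GADD45A, PHLDA3, PLK2, PPM1D, SESN2 and TP53I3) and none higher, where 2.80% of genes fell and 3.63% rose. The constitutive system fitted alone gave no member, where 0.714% of genes fell and 1.65% rose, and 11 members had an unadjusted p below 0.05. The share of all genes at that unadjusted threshold is not given here. The typical distance between the 2 libraries of a group, as the median absolute log2 difference over the members, was 0.49 in constitutive DNp63 cells, 0.74 in GFP cells, 0.29 in induced cells and 0.16 in uninduced cells. Over all genes the same distance was 0.41 in constitutive DNp63 cells, 0.37 in GFP cells, 0.22 in induced cells and 0.17 in uninduced cells. The GFP libraries were thus further apart in these genes than in the typical gene.

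**Figure D1:**
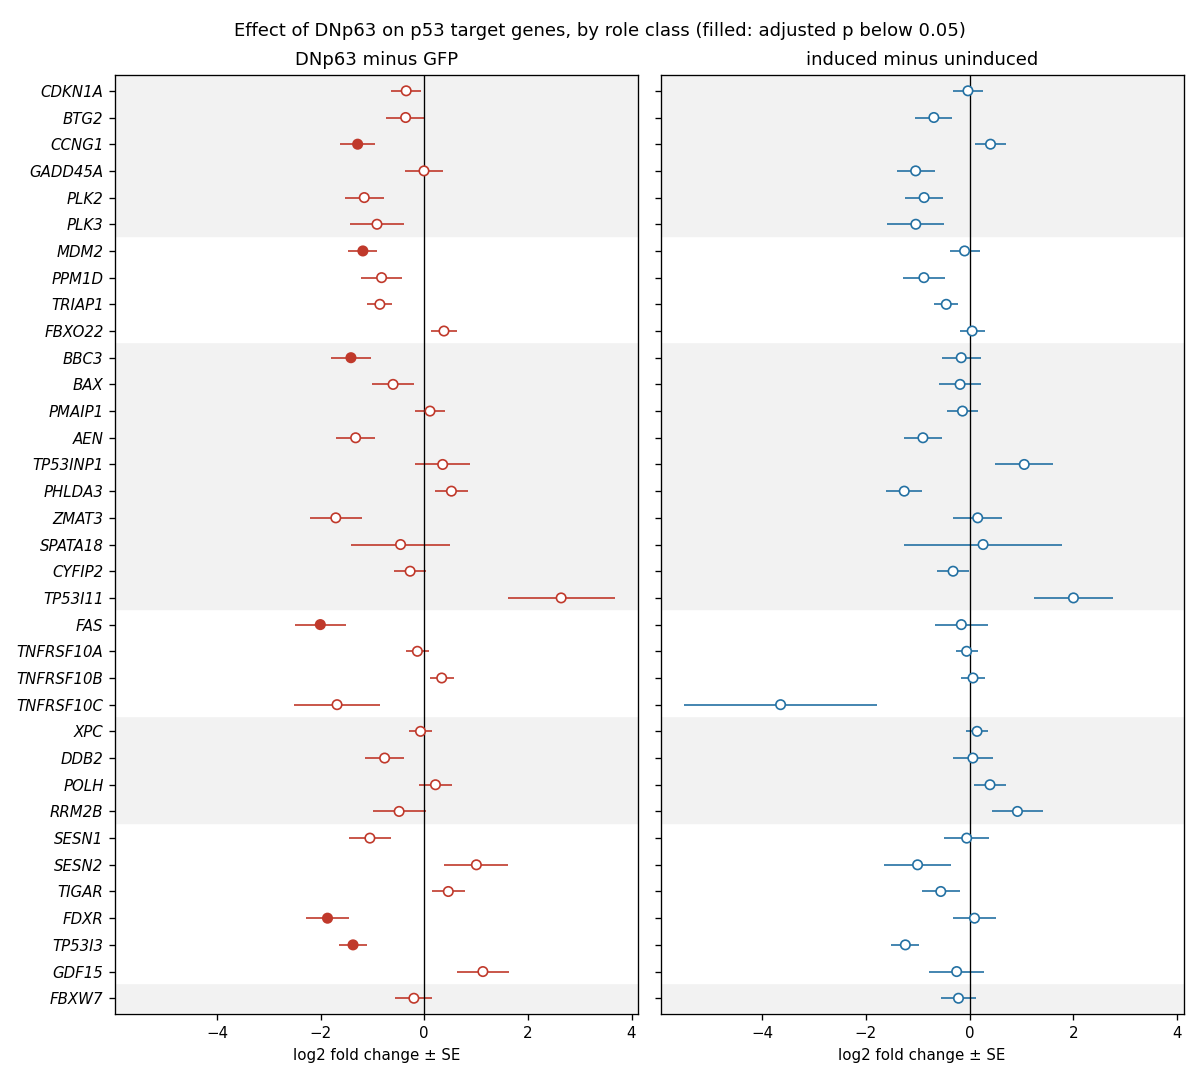
Log2 fold change with its standard error (x axis) of each of the 35 tested p53 target genes (y axis), with bands for role classes, for constitutive DNp63 minus GFP (left) and induced minus uninduced (right). Filled points passed the test, 6 on the left and 0 on the right. TNFRSF10C had no count in induced cells, so its fitted value there is not a measured size.

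Without regard to a test, both induced libraries lay below both uninduced libraries for 14 members and above them for 5, where 24% of all genes were lower and 22.9% higher. Both constitutive DNp63 libraries lay below both GFP libraries for 14 members and above them for 2, where 22% were lower and 22.4% higher. Both libraries with DNp63 lay below both controls in each system for 6 members: PLK2, TRIAP1, BBC3, AEN, TNFRSF10C and TP53I3. The share of all genes with that pattern was 7.15%. For TNFRSF10C the inducible part rests on 0 counts in induced cells and 4 in uninduced cells. TP53I11 lay higher in every DNp63 library of both systems, a pattern of 7.84% of all genes.

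Genes of cell cycle and growth arrest had 1 of 6 members lower in the averaged comparison, PLK2, and none higher. CDKN1A encodes p21, the inhibitor of cyclin-dependent kinases through which p53 halts the cycle. Its level was 635 and 711 CPM in constitutive DNp63 cells and 1147 and 569 CPM in GFP cells. It was 313 and 423 CPM in induced cells and 378 and 373 CPM in uninduced cells. The libraries overlapped in both systems, and the averaged value was −0.19 ± 0.20 on the log2 scale (SE, with n = 2 in each group) and had an adjusted p of 0.687 in edgeR. Without GFP replicate 1 the value was 0.10. PLK2, a polo-like kinase of the stress response, had 23.7 and 15.7 CPM in constitutive DNp63 cells and 62.1 and 26.5 CPM in GFP cells. It had 14.9 and 15.7 CPM in induced cells and 29.2 and 27.2 CPM in uninduced cells. Every DNp63 library was below its controls, and the averaged log2 fold change was −1.02 ± 0.26 (edgeR adjusted p = 0.0477). The call was lost without constitutive DNp63 replicate 2, GFP replicate 1, or any 1 of the 4 inducible libraries (adjusted p from 0.0766 to 0.215), and at a minimum count of 30 (0.0522).

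CCNG1, cyclin G1, was at 10.9 and 7.76 CPM in constitutive DNp63 cells and 17.7 and 26.7 CPM in GFP cells, and at 18.2 and 27.7 CPM in induced cells and 17.9 and 16.6 CPM in uninduced cells. It fell by 1.29 on the log2 scale with constitutive DNp63 (SE 0.34, edgeR adjusted p = 0.0423), while its inducible value was 0.40 ± 0.31 (0.968). The difference of 1.69 ± 0.46 between the systems was not called (edgeR adjusted p = 0.158). The constitutive call of CCNG1 was lost without constitutive DNp63 replicate 2 (value −1.05), GFP replicate 2 (−0.96) or any 1 of the 4 inducible libraries. Inducible libraries enter the constitutive comparison only through the spread, filter and scaling shared by all 8 libraries. Without any 1 of them the CCNG1 value was −1.28 or −1.29. The remaining members of the class were GADD45A, a growth arrest and repair protein gene, BTG2, an antiproliferative gene, and PLK3, another polo-like kinase. Their averaged log2 fold changes ran from −0.98 to −0.52 and did not pass. GADD45A was at 55.3 and 61.2 CPM in induced cells, against 127 and 113 CPM in uninduced cells (−1.04 ± 0.37, edgeR adjusted p = 0.554). In constitutive DNp63 cells it was at 229 and 89.0 CPM, against 192 and 127 CPM in GFP cells (−0.01 ± 0.36, edgeR adjusted p = 0.996).

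Of the genes classed here under negative feedback on p53, TRIAP1 fell in the averaged comparison and MDM2 fell with constitutive DNp63. MDM2 had 79.4 and 59.5 CPM in constitutive DNp63 cells and 199 and 117 CPM in GFP cells. It had 28.8 and 20.3 CPM in induced cells and 27.0 and 25.9 CPM in uninduced cells. The 2 GFP libraries were the highest of the 8 and the 4 inducible libraries the lowest. The constitutive log2 fold change of MDM2 was −1.18 ± 0.28 (edgeR adjusted p = 0.0287) and the inducible one −0.10 ± 0.29 (0.995), with a difference of 1.09 ± 0.40 that was not called (0.308). The constitutive call was lost without constitutive DNp63 replicate 2 (value −0.98) or GFP replicate 1 (−0.76). It was also lost without any 1 of the 4 inducible libraries, where the value stayed at −1.19. TRIAP1, whose product protects mitochondria against apoptosis, had 22.3 and 19.6 CPM in constitutive DNp63 cells and 42.1 and 33.9 CPM in GFP cells, and 18.8 and 22.0 CPM in induced cells and 27.2 and 28.4 CPM in uninduced cells. Its averaged log2 fold change was −0.65 ± 0.17 (edgeR adjusted p = 0.0466), a call that held without constitutive DNp63 replicate 1 and was lost without any 1 of the other 7 libraries (0.0505 to 0.225). PPM1D, a phosphatase that switches p53 signalling off, had −0.85 ± 0.28 (0.119), and FBXO22, a ubiquitin ligase subunit, 0.21 ± 0.17 (0.562).

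**Figure D2:**
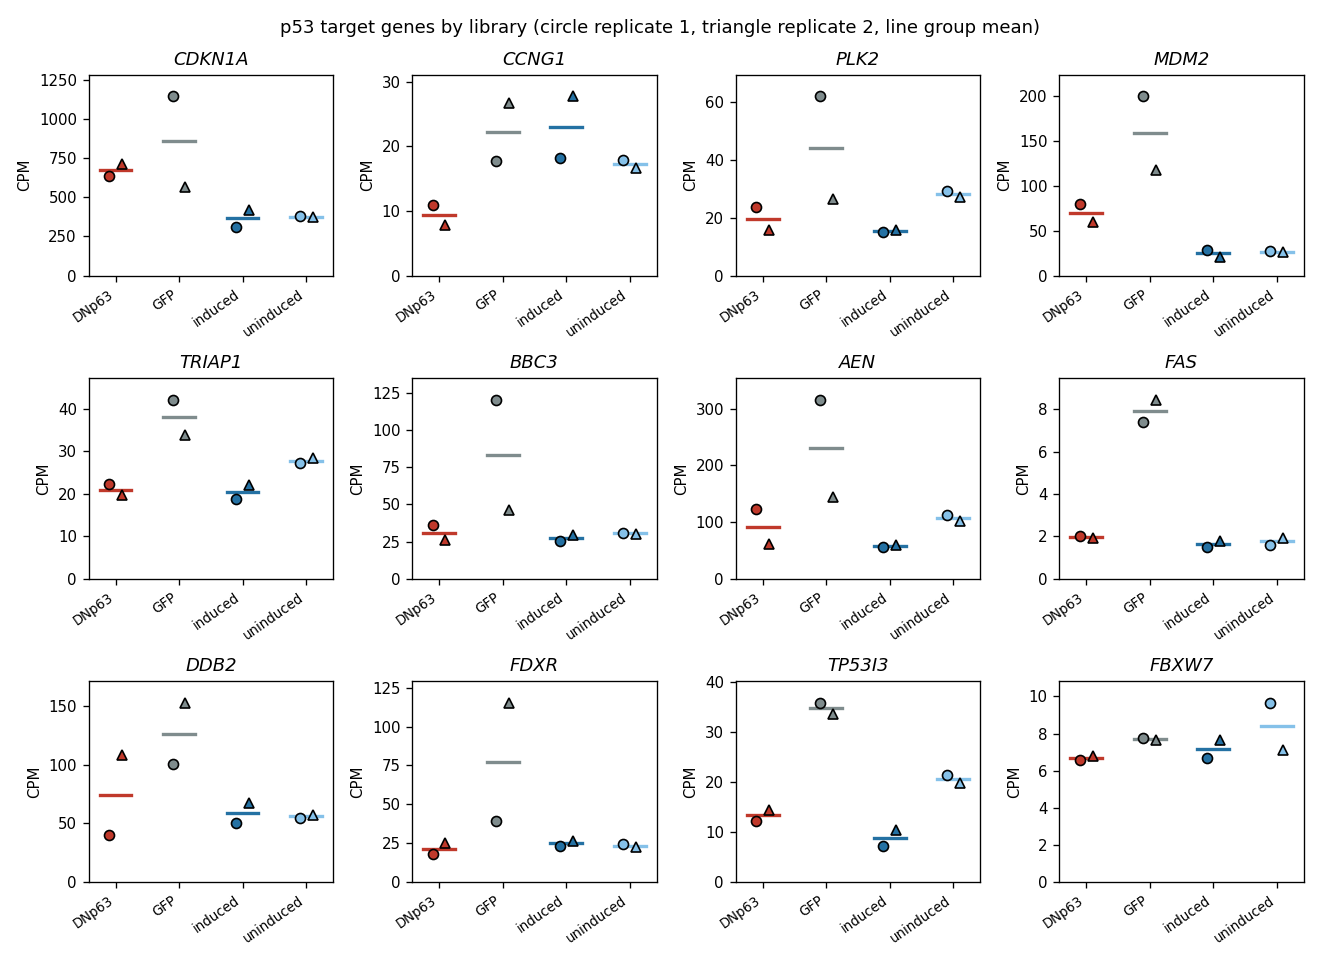
CPM (y axis, linear from 0) of 12 p53 target genes in each library of the 4 groups (x axis), with circles for replicate 1, triangles for replicate 2 and lines for group means. FAS, FDXR and BBC3 are near one level in the other 6 libraries and higher in both GFP libraries, while TP53I3 is lower with DNp63 in both systems.

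Among the 10 genes of the apoptosis programme, AEN fell in the averaged comparison and BBC3 fell with constitutive DNp63. AEN, a nuclease that takes part in apoptosis, had 123 and 61.3 CPM in constitutive DNp63 cells and 316 and 145 CPM in GFP cells. It had 55.1 and 59.6 CPM in induced cells and 113 and 101 CPM in uninduced cells. Its averaged log2 fold change was −1.11 ± 0.26 (edgeR adjusted p = 0.0331), with −1.32 ± 0.37 constitutive and −0.90 ± 0.37 inducible. For AEN the adjusted p missed the threshold without GFP replicate 1, where the value was −0.78, or any 1 of the 4 inducible libraries (0.0667 to 0.187). BBC3, which encodes the BH3-only killer protein PUMA, had 36.3 and 25.8 CPM in constitutive DNp63 cells and 120.45 and 46.0 CPM in GFP cells, and 25.1 and 29.7 CPM in induced cells and 30.8 and 30.3 CPM in uninduced cells. GFP replicate 1 was far above the other 7 libraries. The constitutive log2 fold change of BBC3 was −1.41 ± 0.38 (edgeR adjusted p = 0.047) and −0.58 without GFP replicate 1, where the call was lost. The call was also lost without constitutive DNp63 replicate 2 (−1.17) or any 1 of the 4 inducible libraries, where the value stayed at −1.42. At a minimum count of 30 it missed the threshold too (edgeR adjusted p = 0.053).

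The other 8 genes of that programme did not pass in the averaged, constitutive or inducible comparison of the joint fit. BAX, the pore-forming partner of PUMA, had 32.6 and 66.5 CPM in constitutive DNp63 cells and 42.5 and 107 CPM in GFP cells, with replicate 2 the higher in both groups. PMAIP1, the gene of the BH3-only protein NOXA, had an averaged value of −0.01 ± 0.20. PHLDA3, an inhibitor of AKT signalling, had 71.4 and 78.8 CPM in constitutive DNp63 cells and 71.7 and 34.1 CPM in GFP cells, and 7.16 and 8.85 CPM in induced cells and 20.9 and 17.4 CPM in uninduced cells. The induced libraries of PHLDA3 were the lowest, at −1.26 ± 0.34 (edgeR adjusted p = 0.3). ZMAT3, an RNA-binding protein gene, had a constitutive value of −1.71 ± 0.51 (0.0651). TP53I11 was expressed close to the detection limit, with 16 counts in constitutive DNp63 cells and 2 in GFP cells, a ratio of 6.87 (95% exact interval 1.61 to 61.6, counting error only), and its averaged value of 2.32 ± 0.64 did not pass (edgeR adjusted p = 0.0608). SPATA18, with 0 to 2.96 CPM, TP53INP1 and CYFIP2 had averaged values from −0.30 to 0.71.

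Of the 4 death receptor genes, FAS fell with constitutive DNp63 and the others did not pass. FAS, whose product starts apoptosis when its ligand binds, had 2.00 and 1.94 CPM in constitutive DNp63 cells and 7.39 and 8.47 CPM in GFP cells. It had 1.48 and 1.77 CPM in induced cells and 1.61 and 1.94 CPM in uninduced cells. Both GFP libraries were above the other 6. The constitutive log2 fold change was −2.01 ± 0.49 (edgeR adjusted p = 0.0335) and the inducible one −0.16 ± 0.51 (0.995), with a difference of 1.85 ± 0.71 that was not called (0.33). The FAS call was lost without any 1 of the 8 libraries, at adjusted p from 0.0523 to 0.184, while the value stayed between −2.10 and −1.91. DESeq2 did not call it either (0.0503). TNFRSF10B, the TRAIL receptor DR5, had 342 and 333 CPM in constitutive DNp63 cells and 337 and 199 CPM in GFP cells, and 104 and 105 CPM in induced cells and 96.6 and 104 CPM in uninduced cells. All 4 constitutive libraries were above all 4 inducible ones. TNFRSF10A, the TRAIL receptor DR4, was between 36.8 and 58.7 CPM in all libraries. TNFRSF10C, a decoy TRAIL receptor, had 0 counts in induced cells and 4 in uninduced cells. The exact 95% interval of that ratio, from 0 to 1.75, holds a complete loss as well as no difference. These counts cannot tell which, at this depth. Reads of the related TNFRSF10 genes could be divided between them in counting.

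None of the 4 genes of DNA repair and nucleotide supply passed in the averaged, constitutive or inducible comparison of the joint fit. DDB2, a sensor of ultraviolet damage, had 40.0 and 109 CPM in constitutive DNp63 cells and 100.5 and 153 CPM in GFP cells, and 50.1 and 67.5 CPM in induced cells and 54.9 and 57.3 CPM in uninduced cells. Replicate 2 was the higher in both constitutive groups, and these overlapped. Its constitutive value was −0.76 ± 0.38 (edgeR adjusted p = 0.268). Within each vector number DDB2 was lower with DNp63, and with that number as a block it was called at −0.88 ± 0.24 (0.03). XPC, another damage sensor, POLH, a translesion polymerase, and RRM2B, a ribonucleotide reductase subunit, had averaged values from 0.04 to 0.31.

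Of the 6 genes of stress metabolism, TP53I3 fell in the averaged and constitutive comparisons and FDXR in the constitutive one. TP53I3, a quinone oxidoreductase, had 12.3 and 14.4 CPM in constitutive DNp63 cells and 35.8 and 33.7 CPM in GFP cells. It had 7.16 and 10.4 CPM in induced cells and 21.3 and 19.8 CPM in uninduced cells. The groups did not overlap in either system. It fell by 1.31 on the log2 scale on average (SE 0.19, edgeR adjusted p = 0.00272), with −1.37 ± 0.27 constitutive (0.0115) and −1.24 ± 0.27 inducible (0.157). The difference of 0.14 ± 0.38 between the systems was not called (0.939). The averaged and constitutive calls of TP53I3 held without any 1 of the 8 libraries (adjusted p up to 0.0259 averaged and 0.0437 constitutive). FDXR, the mitochondrial ferredoxin reductase, had 17.7 and 24.8 CPM in constitutive DNp63 cells and 39.2 and 115 CPM in GFP cells, and 23.2 and 26.4 CPM in induced cells and 24.2 and 22.3 CPM in uninduced cells. The constitutive log2 fold change of FDXR was −1.87 ± 0.42 (edgeR adjusted p = 0.0211) and −0.88 without GFP replicate 2, where the call was lost. FDXR also lost the call without constitutive DNp63 replicate 1 (−1.67) or either induced library, where the value stayed at −1.87. Its inducible value was 0.10 ± 0.41 (0.995) and the difference between the systems 1.96 ± 0.58 (0.198), which DESeq2 and the blocked fit called.

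GDF15, a secreted stress cytokine, and SESN2, a sestrin that restrains growth signalling, pointed up with constitutive DNp63 without passing the test. GDF15 had 347 and 149 CPM in constitutive DNp63 cells and 177 and 51.0 CPM in GFP cells, a log2 fold change of 1.13 ± 0.50 (edgeR adjusted p = 0.211). SESN2 had 311 and 136 CPM in constitutive DNp63 cells and 192 and 32.8 CPM in GFP cells, at 1.01 ± 0.62 (0.377). For both genes the pLEX_306 library of each group was higher than the pLEX_307 library, and the groups overlapped. With the vector number as a replicate block both rose in the constitutive comparison, GDF15 at 1.25 ± 0.21 (edgeR adjusted p = 0.00197) and SESN2 at 1.34 ± 0.29 (0.00981). That fit called 14 members, of which 12 fell, and 11.4% of all genes. The members that it called and the fit without the block did not were AEN, DDB2, GDF15, PLK2, PPM1D, SESN2, TRIAP1 and ZMAT3. In the inducible system GDF15 had 22.6 and 18.5 CPM induced and 28.4 and 21.1 CPM uninduced, and SESN2 had 19.5 and 30.3 CPM induced and 49.7 and 49.4 CPM uninduced. TIGAR, a regulator of glycolysis, had 30.9 and 45.4 CPM in constitutive DNp63 cells and 28.4 and 27.1 CPM in GFP cells, and 3.46 and 5.11 CPM in induced cells and 4.43 and 7.58 CPM in uninduced cells. SESN1, the other sestrin, had an averaged value of −0.55 ± 0.30. Of the 2 ubiquitin ligase genes, FBXW7 was between 6.57 and 9.66 CPM in all libraries (−0.21 ± 0.24, edgeR adjusted p = 0.72), and TRIM22 was between 0 and 1.06 CPM and was not tested.

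Between uninduced and GFP cells, the 2 groups that serve as controls, most p53 target genes had a value below 0 and 1 of 35 passed the test. TP63 stood at 12.7 and 14.8 CPM in uninduced cells and 0.739 and 1.91 CPM in GFP cells, and its part in these values was not tested. Of the 35 tested members 32 had a log2 fold change below 0 (uninduced minus GFP) and the median was −1.16, against 51.2% and −0.01 over all genes. MDM2 was called, with 27.0 and 25.9 CPM in uninduced cells and 199 and 117 CPM in GFP cells, a log2 fold change of −2.58 ± 0.30 (edgeR adjusted p = 0.0418). It was the 1 gene called of 12303, so that the share of genes lower was 0.00813%. The MDM2 call held without any 1 of the 4 constitutive libraries and was lost without either induced library (0.2 and 0.204) or uninduced replicate 1 (0.596) or 2 (1), while its value stayed between −2.91 and −2.15. DESeq2 called 8 members, all lower in uninduced cells: BBC3, CDKN1A, FDXR, MDM2, PHLDA3, SESN1, TIGAR and TNFRSF10B, where it called 0.463% of all genes. In edgeR 22 members had an unadjusted p below 0.05, against 1120 of all 12303 genes. Both uninduced libraries were below both GFP libraries for 26 members and above them for 1, BTG2, where 21.9% of all genes were lower and 22.0% higher. Both GFP libraries were above all 4 inducible libraries for 23 members, where 13.3% of all genes were. Without GFP replicate 1 the median of the members was −0.63.

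**Figure D3:**
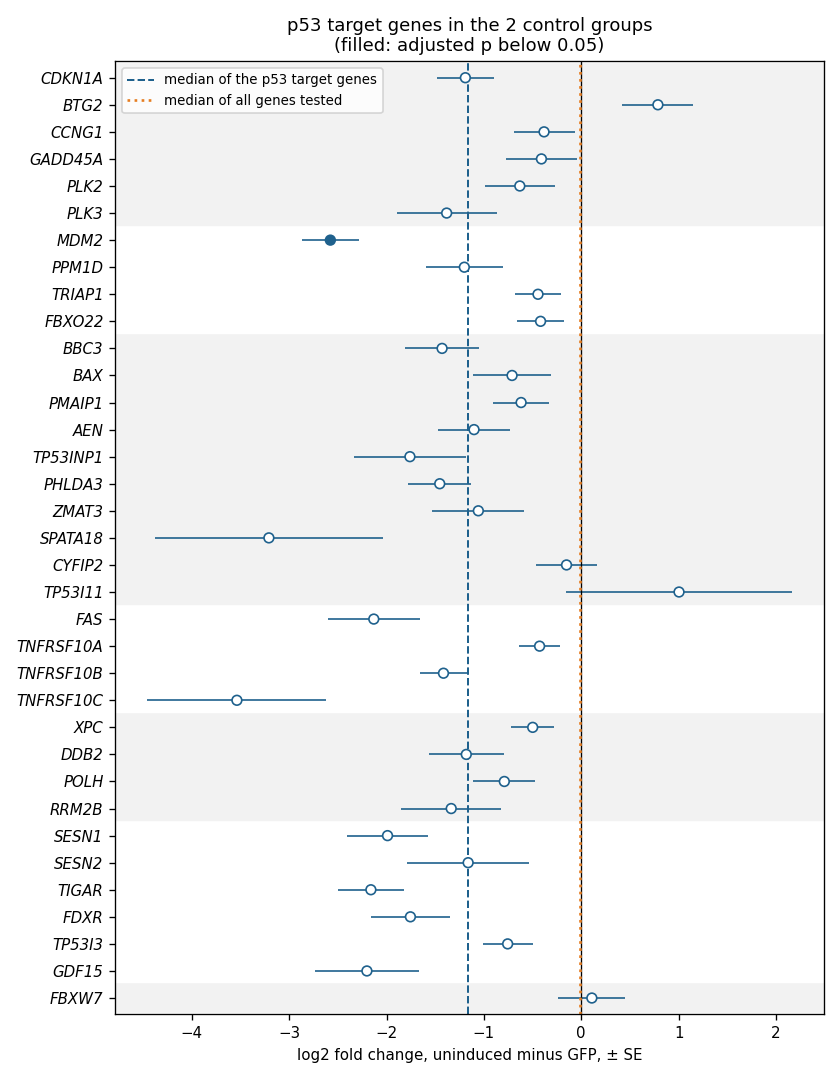
Log2 fold change of uninduced minus GFP cells with its standard error (x axis) for the 35 tested p53 target genes (y axis), with bands for role classes. The dashed line is the members' median of −1.16 and the dotted line that of all genes, −0.01. MDM2, filled, passed the test.

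A comparison of both inducible groups with both constitutive groups, added after the values were seen, called 11 members, all lower in the inducible groups: CDKN1A, GDF15, MDM2, PHLDA3, PLK3, PPM1D, SESN1, SESN2, TIGAR, TNFRSF10B and TNFRSF10C. Over all genes 8.19% were called, 4.43% lower and 3.76% higher, and the members' median was −0.77. TIGAR had −2.67 ± 0.25, PHLDA3 −2.35 ± 0.24 and MDM2 −2.03 ± 0.21 (edgeR adjusted p = 0.00221 for each). TNFRSF10B had −1.55 ± 0.17 (0.00295), GDF15 −2.89 ± 0.38 (0.00437) and CDKN1A −1.03 ± 0.21 (0.019). All 4 constitutive libraries lay above all 4 inducible libraries for 10 members, where 6.25% of all genes did so. Both GFP libraries were above the other 6 for 9 members (AEN, BBC3, FAS, FDXR, MDM2, SESN1, TNFRSF10C, TP53I3 and TRIAP1), where 4.88% of all genes were. The vector differs between the systems, and its part and that of any other difference between these cells cannot be told apart.

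Summed over the 36 members, the level was 2823 and 2526 CPM in constitutive DNp63 cells and 3733 and 2451 CPM in GFP cells, and 1198 and 1395 CPM in induced cells and 1574 and 1534 CPM in uninduced cells. The GFP sum overlapped that of constitutive DNp63 cells. Stress genes under ATF4, a transcription factor of amino acid and endoplasmic reticulum stress that also drives SESN2, also varied between libraries. Of these, 12 genes outside the members summed to 5333 and 2726 CPM in constitutive DNp63 cells and 3588 and 1293 CPM in GFP cells, and to 1489 and 1571 CPM in induced cells and 1659 and 1656 CPM in uninduced cells. None of the 12 was at 0. The part of this response in the levels of the p53 target genes was not tested.

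**Figure D4:**
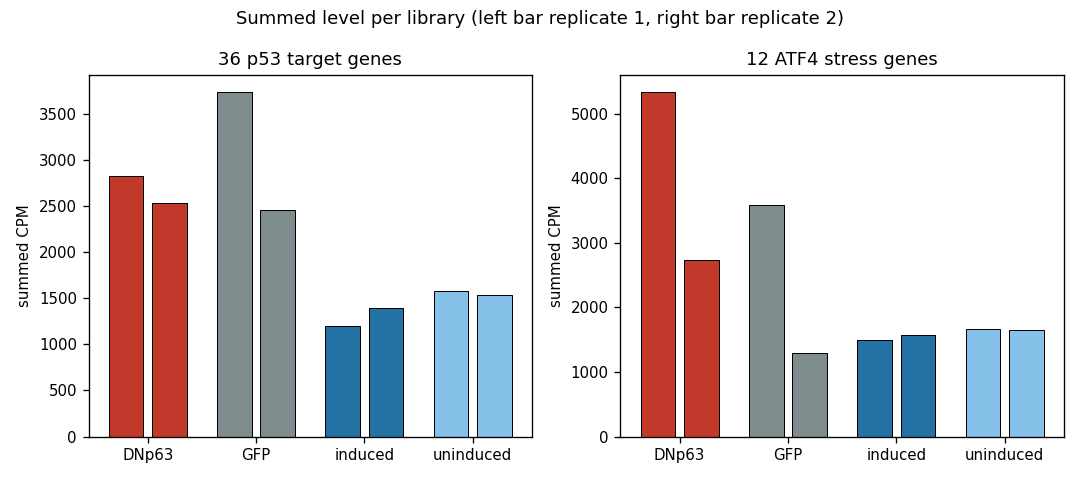
Summed CPM (y axis, from 0) of the 36 p53 target genes (left) and of 12 ATF4 stress genes (right) in each library, with replicate 1 as the left bar of each group (x axis). GFP replicate 1 has the highest p53 target sum, 3733 CPM, and constitutive DNp63 replicate 1 the highest ATF4 sum, 5333 CPM.

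Of the genes that act beside p53, MDM4, a partner of MDM2 that also blocks p53, had an averaged log2 fold change of −0.02 ± 0.25 (edgeR adjusted p = 0.984), and TP73, which encodes p73 of the same family, −0.12 ± 0.22 (0.829). Neither passed the test.

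Of 34 tested p53 targets outside the members, 5 rose and 2 fell in the averaged comparison, with a median of 0.05. Of all genes 3.26% rose and 2.41% fell there. SFN, a 14-3-3 protein gene of stratified epithelium, had 238 and 123 CPM in constitutive DNp63 cells and 48.4 and 48.9 CPM in GFP cells, and 87.9 and 95.8 CPM in induced cells and 67.6 and 59.3 CPM in uninduced cells. It rose by 1.21 ± 0.20 on the log2 scale (edgeR adjusted p = 0.00493). TGFA, a growth factor of epithelial cells, rose by 1.35 ± 0.20, FAM210B, a mitochondrial protein gene, by 1.30 ± 0.16, PRKAB1, a subunit of the energy sensor AMPK, by 1.04 ± 0.23 and TSKU, a secreted signalling modulator, by 0.76 ± 0.14. PCNA, the replication clamp, had −0.82 ± 0.15 (0.00863), and PIDD1, a death domain protein gene, −0.77 ± 0.17 (0.0242). PRKAB1, with the largest p of these 7, was named after its values were seen. Of 11 cell cycle genes that p21 lowers through the DREAM complex, 2 fell and 9 did not pass in the averaged comparison. Their median was −0.34, and 2.41% of all genes fell in that comparison. All 11 were below 0 with constitutive DNp63 (median −0.92), where CCNA2 and CDC20 fell, while 9 were above 0 in induced cells (median 0.39) with none called. The difference between the systems was called for CDC20. In the averaged comparison E2F1, a transcription factor of S phase entry, fell by 0.91 on the log2 scale (SE 0.17, edgeR adjusted p = 0.0104) and MCM5, a subunit of the replicative helicase, by 0.63 (SE 0.13, 0.0181).

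Where annotated genes overlap, reads could be shared, because no source used here states how strand was treated when reads were counted. In the RefSeq annotation FAS overlaps ACTA2 and FAS-AS1, CCNG1 overlaps NUDCD2, TP53I3 overlaps FAM228B, AEN overlaps LINC01586, and MDM2 overlaps the carboxypeptidase M gene. PLK2, TRIAP1 and FDXR overlap no annotated gene.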

How the data were processed

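Raw counts for each gene in 8 libraries were deposited. Per the submitters' processing notes, the authors aligned reads with TopHat2 2.1 to hg19 and made counts with HTSeq, with SAMtools and DESeq2 also named. No source used here gives the annotation, the strand setting or any filter. The table holds no row without a gene name and no column without a sample. No 2 libraries were identical.

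Genes were filtered with edgeR's filterByExpr on the 4 groups (minimum count 10), leaving 12303, and scaled with edgeR's TMM factors. edgeR 4.0.16 under R 4.3.3 fitted 4 group means with 1 shared spread (quasi-likelihood, legacy estimates). Tests were two-sided, adjusted over all genes tested, and called below 0.05. Standard errors came from the same fit. Contrasts were the average of both systems, each system, their difference, and uninduced minus GFP. A floor of 3 counts in 1 library stands for 0.292 to 1.11 CPM. Intervals and floors cover counting error only. The fit was checked on simulated counts. In the averaged comparison it called 46.8% of genes with a true log2 fold change of −1 and 64% at 1. It called 89.8% at −2, 98% at 2 and 0.0675% of unchanged genes. A change of 1 on the log2 scale could thus be missed.

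The members, role classes and lists were chosen with earlier results of these data known. Values in every library are given for CDKN1A, MDM2, TP53I3 and AEN, for members called in the averaged, constitutive, inducible or difference comparison, and for the most abundant tested member of a class without one, and further members were chosen after their values were seen. All 36 members matched a current gene symbol. Alternatives were other size factors, other filters, DESeq2 1.42.0, other spread estimates, a replicate block, each system fitted alone and each library left out. Some genes of the further lists are not reported here.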

Additional observations from a re-analysis of the deposited data

How the results depend on the processing

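The count of p53 target genes called was 4 in the averaged comparison, 6 constitutive, 0 inducible, 0 for the difference between systems and 1 between the control groups. Without the filter on low counts it was 12 averaged, 14 constitutive, 5 inducible, 7 for the difference and 16 between the control groups, while all genes called numbered 1372, 1791, 242, 558 and 245 of 18159 for the same comparisons, against 697, 1004, 35, 67 and 1 of 12303 with it. The cause was not tested. DESeq2 gave 2 in the difference test and 8 between the control groups. A minimum count of 30 gave 0 for the control groups, where 0 of all 10316 genes were called. MDM2 had a log2 fold change of −2.58 there (edgeR adjusted p = 0.0577). The comparison of both inducible with both constitutive groups, added after the values were seen, gave 11. Each system fitted alone gave 0 constitutive and 8 inducible calls, and the cause was not tested. With each of the 8 libraries left out in turn the counts ran from 1 to 6 averaged, 1 to 8 constitutive, 0 to 1 inducible, 0 to 3 in the difference test and 0 to 6 between the control groups. Where a group then had 1 library, it was assumed to vary like the others. The number of all genes called also changed in these fits. It was below that of the fit with all 8 libraries wherever only 1 member was called in the averaged or constitutive comparison. The fall to 1 member can thus not be read as particular to the p53 target genes. The constitutive −0.25 and the −0.63 between the control groups came without GFP replicate 1, where constitutive calls went in both directions. Size factors of the DESeq2 type and the newer edgeR estimates moved no count by over 1.5 times. CDKN1A, not called in the averaged comparison under any of these, changed sign there without GFP replicate 1, to 0.10, and ran down to −0.41 without GFP replicate 2. Same-numbered libraries share a vector number in the constitutive system and a bare number in the inducible one. The correlation of their deviations was 0.22 in the constitutive and −0.03 in the inducible system. With the replicate block 10 members were called averaged, 14 constitutive, 0 inducible, 4 for the difference and 5 between the control groups, among 1040, 1400, 87, 270 and 19 of 12303 genes. Genes of few counts, such as TRIM22, SPATA18 and TNFRSF10C, are limited by depth.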
